A study of Homo sapiens with 30 samples.

Results

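The genes described here are 10 inflammatory cytokine and chemokine genes, CXCL1, CXCL2, CXCL3, CXCL5, CXCL10, CCL20, IL1A, IL1B, IL6 and IL32, out of 26249 genes in the expression table. They were chosen by name, by a rule that sets no threshold on any measured value, but with earlier results of these data known. All 10 are in the table, and 6 of them reached 1 FPKM (fragments per kilobase of transcript, scaled to the mapped fragments of the line, a level per length) in at least 1 line, as did 12666 of the 26249 genes. The other members, CXCL1, CXCL5, CXCL10 and IL6, stayed below that level in every line.

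RWPE1 is an immortalised normal prostate epithelial line, here transduced with retroviruses and kept under hygromycin and puromycin. RNA-seq covered 4 lines of 3 libraries each, and nothing says whether those libraries came from separate transductions. RWPE1-Vector carries the empty vectors pQCXIH and pBabe-puro, RWPE1-ERG carries ERG (the ETS transcription factor that gene fusion switches on in many prostate tumours) with empty pBabe-puro, RWPE1-mAKT carries myristoylated AKT (mAKT, a membrane-bound and constantly active kinase) with empty pQCXIH, and RWPE1-ERG+mAKT carries ERG and mAKT. ChIP-seq and ATAC-seq, 1 library a line, gave peak lists for ERG in RWPE1-ERG+mAKT and in vehicle-treated VCaP (a prostate cancer line with its own ERG fusion), for the kinase ERK2 in vector and ERG cells, for open chromatin in the ERG, mAKT and ERG+mAKT lines, and for the repressive histone mark H3K27me3 in vector, ERG and ERG S96E cells (S96E is an ERG with glutamate in place of serine 96). Both transgenes are driven by viral promoters, so their level is not that of a tumour. The vector lines of the ChIP libraries carry pQCXIH alone.

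Cytokines of the interleukin-1 family are made by epithelial cells as alarm signals, and IL-1 binding to its receptor activates NF-kB in neighbouring cells. NF-kB in turn switches on many chemokine genes, among them the ELR-type CXC chemokines that draw neutrophils and CCL20 that draws CCR6-bearing lymphocytes. ETS factors and AP-1 bind many of the same enhancers in epithelial cells.

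ERG was at 0.264 FPKM in vector, 358 in ERG, 0.435 in mAKT and 328 in ERG+mAKT cells, and AKT1 was at 58.7, 64.2, 156 and 281 FPKM in the same order. Both follow the labels. AKT1 was higher in ERG+mAKT than in mAKT cells, so a comparison of these lines also differs in AKT1 RNA. Its part in the results was not tested. All 5 basal epithelial markers reached 1 FPKM, and so did 3 of 5 luminal markers. Of the luminal markers, KRT8 was at 622, 1769, 671 and 921 FPKM in vector, ERG, mAKT and ERG+mAKT cells. KRT18 was at 817, 1843, 987 and 958 FPKM in the same order. KLK3, a gene of prostate luminal cells, was listed at 0 in every line. Of 7 leukocyte markers 2 reached 1 FPKM, their sum was 26.1 to 30.3 by line, and the defining genes PTPRC and CD3E were at most 0.00929. Of 5 fibroblast markers 1 did (sum 1.82 to 2.19), and of 4 endothelial markers 0 (sum 0.0215 to 0.299). FPKM summed to 846035, 1246060, 971481 and 959546 in vector, ERG, mAKT and ERG+mAKT cells, and the 385 small nucleolar RNA genes made up 103905, 342041, 130683 and 255343 of those sums. The median-ratio factors between the lines were 0.965 to 1.03, and the part of the small nucleolar RNAs in the results was not tested.

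Of the sequences at these genes, the sites where ERG and ATAC peaks met, at IL1B with an ERK2 peak, carry the first set of results. The bases below are those that an ERG peak of RWPE1-ERG+mAKT cells and an ATAC peak of RWPE1-ERG cells share, read from GRCh37, the build of the peak lists (hg19), and shown because these ATAC peaks are listed in both ERG-expressing lines and not in RWPE1-mAKT. Capitals mark GGAA, the core that ETS factors recognise, on either strand (TTCC on the strand printed).
IL1B site, chr2:113569457-113569735, plus strand: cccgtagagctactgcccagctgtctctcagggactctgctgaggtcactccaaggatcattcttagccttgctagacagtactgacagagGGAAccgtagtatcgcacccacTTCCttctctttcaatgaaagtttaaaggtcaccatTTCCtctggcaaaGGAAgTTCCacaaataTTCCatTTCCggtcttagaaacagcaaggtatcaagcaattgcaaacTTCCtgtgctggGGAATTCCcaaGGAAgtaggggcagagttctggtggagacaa
CXCL5 site, chr4:74871258-74871375, plus strand: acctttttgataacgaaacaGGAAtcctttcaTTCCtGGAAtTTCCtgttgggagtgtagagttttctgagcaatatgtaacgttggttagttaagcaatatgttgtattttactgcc
CCL20 site, chr2:228653461-228653635, plus strand: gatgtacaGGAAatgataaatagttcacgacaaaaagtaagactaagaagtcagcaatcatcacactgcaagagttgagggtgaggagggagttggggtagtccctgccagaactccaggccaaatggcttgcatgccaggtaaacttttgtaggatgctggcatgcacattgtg
The IL1B site held 11 GGAA cores in 279 bases, of which 1 lies in the longer ETS match AGGAAGTG. The CXCL5 site held 4 in 118 bases and the CCL20 site 1 in 175 bases, neither with the longer match.

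The second set of sequences is the stretch from 130 to 51 bases before the start of each gene with a match to the NF-kB consensus there, from RefSeq promoters (assembly GRCh38.p14) that matched GRCh37 exactly and at 1 place. They are shown because this match is what most of these genes share. Each is printed 5' to 3' along its gene, and capitals mark the consensus on either strand.
CXCL1, chr4:74734980-74735059, plus strand: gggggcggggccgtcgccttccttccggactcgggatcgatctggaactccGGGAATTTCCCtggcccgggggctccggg
CXCL2, chr4:74964963-74965042, minus strand: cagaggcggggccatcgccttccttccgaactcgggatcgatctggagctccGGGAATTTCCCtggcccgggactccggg
CXCL3, chr4:74904457-74904536, minus strand: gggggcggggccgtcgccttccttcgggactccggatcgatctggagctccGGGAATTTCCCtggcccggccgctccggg
CXCL5, chr4:74864445-74864524, minus strand: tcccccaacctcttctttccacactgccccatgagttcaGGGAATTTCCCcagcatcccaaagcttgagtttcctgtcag
CXCL10, chr4:76944701-76944780, minus strand: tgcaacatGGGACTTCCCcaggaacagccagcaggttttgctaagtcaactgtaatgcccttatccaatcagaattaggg
CCL20, chr2:228678428-228678507, plus strand: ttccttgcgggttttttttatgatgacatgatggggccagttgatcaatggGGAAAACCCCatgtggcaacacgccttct
IL6, chr7:22766689-22766768, plus strand: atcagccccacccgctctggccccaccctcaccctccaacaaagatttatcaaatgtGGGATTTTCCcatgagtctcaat
IL32, chr16:3115274-3115353, plus strand: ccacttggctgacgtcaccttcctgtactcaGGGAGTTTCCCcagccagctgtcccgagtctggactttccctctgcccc
The NF-kB consensus was present in the promoters (250 bases before to 50 after the start) of 8 of the 10 members, against 10.8% of 27305 promoters of the same length. IL1A and IL1B were the members without it in this window. CXCL1 and CXCL3 had the same base at 93.8% of the 80 positions, and CXCL1 and CXCL2 at 87.3% of 79 positions when shifted by 1 base, while CXCL1 and CXCL5 reached 37.7%. The AP-1 letters TGANTCA, which read the same on both strands, were found at 2 places of the IL1A promoter and in no other member, against 7.76% of promoters. TGACGTCA (the CRE) was found only in IL32 among the members, against 1.98% of promoters, and the interferon response element by its name only in CXCL10, against 3.65%. TTGCNNAA, a C/EBP motif, was in CXCL2, IL1B and IL6, against 10.6%, and TATAAA in CCL20 and IL1A, against 12% of promoters. The ETS letters CGGAAGTG or AGGAAGTG (7.75% of promoters) and GGAAGTGA (3.64%), which can overlap, were in none of the 10. These are matches of letters in this window only, and the ERG and ERK2 sites were not searched for the NF-kB consensus. The stretch ggGGAATTCC in the IL1B site printed above fits that consensus, which was seen afterwards.

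IL1B, the secreted interleukin-1 beta, was at 46.6 FPKM in vector, 168 in ERG, 42.0 in mAKT and 44.6 in ERG+mAKT cells. The ERG line stood apart, and the other 3 lay between 42.0 and 46.6. The gene lies on the minus strand at chr2:113587328-113594393 (hg19, GENCODE). On the log2(FPKM + 1) scale, the scale of every ratio below, IL1B was higher by 1.83 in ERG over vector (3.60-fold in FPKM), differed by 0.08 in ERG+mAKT over mAKT, and was lower by 1.89 in ERG+mAKT over ERG (log2 ratio -1.89). The difference between the ERG effect with and without mAKT was -1.75. Each line has 1 value pooled by the authors over its 3 libraries, and the table has no value of a single library. No spread, test or p-value is therefore given for this or any level here (the authors' own tests on these libraries were not used), and whether neighbours in an order of levels differ beyond their spread is not judged. In bulk RNA fewer cells of a type and less RNA per cell cannot be told apart. The epithelial markers moved with the same line. The 5 basal markers summed to 6592, 2396, 6640 and 5027 FPKM in vector, ERG, mAKT and ERG+mAKT cells and the 5 luminal markers, 3 of which reached 1 FPKM, to 1441, 3614, 1659 and 1880. Their part in the IL1B levels was not tested.

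IL1A, the sister cytokine that acts from the cell surface and the nucleus, was at 22.9 FPKM in vector, 46.4 in ERG, 28.5 in mAKT and 28.9 in ERG+mAKT cells. The ERG line was again the highest. Its log2 ratio of 0.99 in ERG over vector fell just short of 2-fold, although the plain FPKM ratio was 2.03, and its ratio in ERG+mAKT over ERG was -0.66. IL1A lies at chr2:113531502-113542070 on the same strand, and the start sites of the pair are 52.3 kb apart.

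IL32, a cytokine gene without a rodent counterpart whose product induces other inflammatory cytokines, was at 0.862 FPKM in vector, 8.92 in ERG, 1.77 in mAKT and 4.82 in ERG+mAKT cells. Both ERG-expressing lines lay above both lines without ERG. The gene is on the plus strand at chr16:3115298-3132193. Its log2 ratio was 2.41 in ERG over vector, where it passed the floor of 1 FPKM only through the ERG line, and 1.07 in ERG+mAKT over mAKT. mAKT over vector gave 0.57 and ERG+mAKT over ERG gave -0.77, so the 4 levels were ordered ERG, ERG+mAKT, mAKT, vector.

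Among the chemokines, CXCL2, an ELR-type CXC ligand of CXCR2, was at 2.85 FPKM in vector, 3.06 in ERG, 2.67 in mAKT and 2.52 in ERG+mAKT cells. CXCL3, a close paralog, was at 2.04, 2.23, 1.26 and 1.34 FPKM in the same order, lower in both mAKT lines, with log2 ratios of -0.43 in mAKT over vector and -0.47 in ERG+mAKT over ERG. CCL20 was at 2.45, 2.84, 4.09 and 3.18 FPKM, highest in mAKT cells, with a log2 ratio of 0.56 in mAKT over vector. None of these 3 genes differed by 2-fold in any of the 5 comparisons.

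CXCL1 was at 0.250, 0.300, 0.141 and 0.412 FPKM in vector, ERG, mAKT and ERG+mAKT cells. CXCL10, the interferon-induced ligand of CXCR3, was at 0.0632, 0.0797, 0.146 and 0.674 FPKM. IL6 was at 0.0479, 0.307, 0.152 and 0.209 FPKM. These 3 genes were highest in the ERG+mAKT, ERG+mAKT and ERG lines, all below the floor of 1 FPKM, where the table does not show how few fragments lie behind a value. CXCL5, another ELR-type ligand, was listed at 0 in every line. CXCL2 shared 5.63% of the 50-base windows of its GENCODE transcript with CXCL1 and 5.07% with CXCL3, and 0.288% and 2.21% of the 75-base windows, so a small share of their reads could be assigned to either gene.

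**Figure D1:**
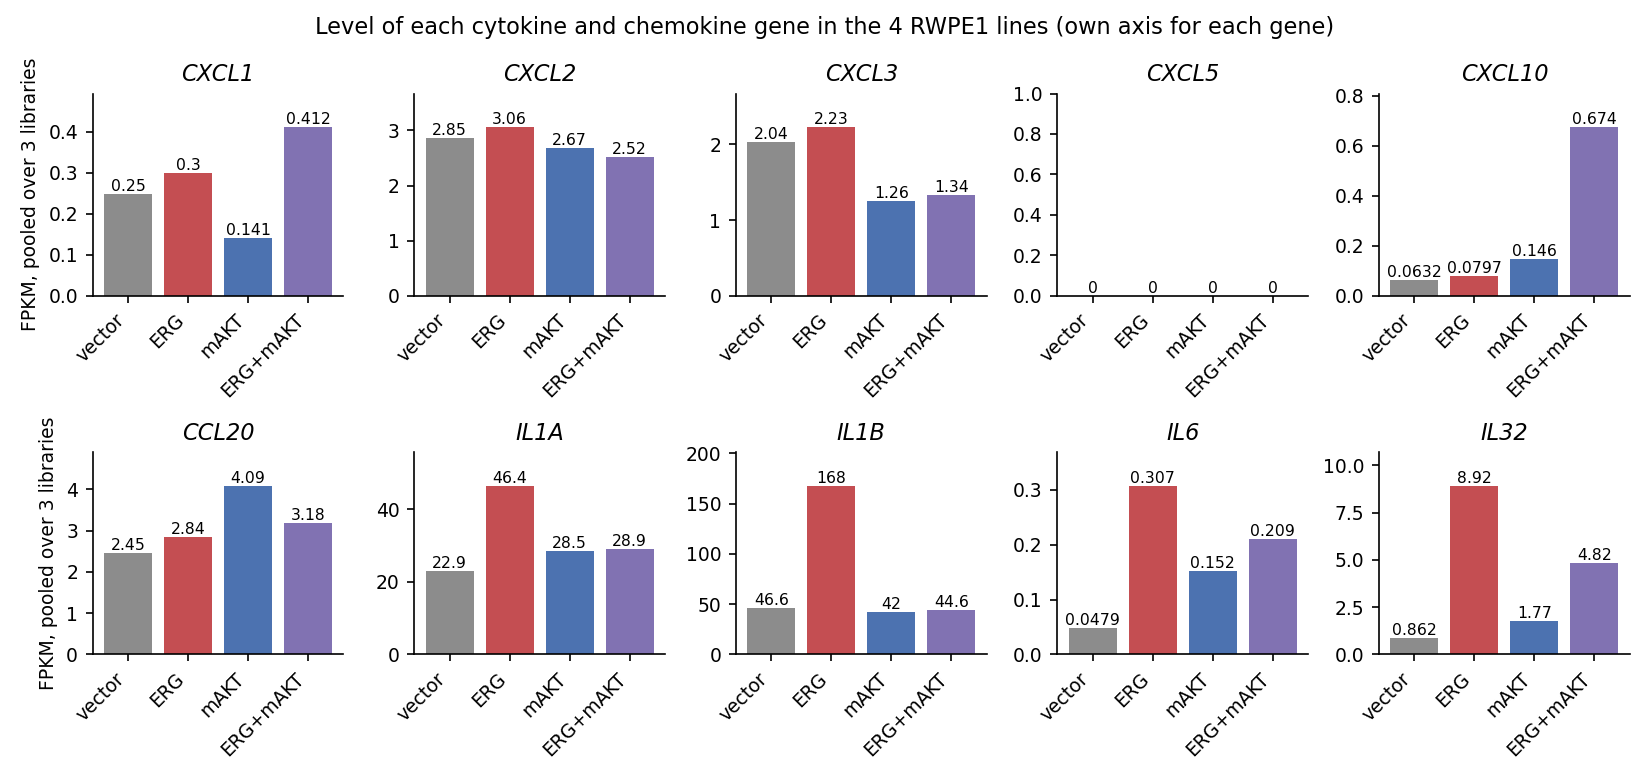
Bars give the FPKM of each of the 10 genes (vertical axis, own range for each gene) in the 4 RWPE1 lines, 1 value per line pooled over 3 libraries and without error bars. IL1B stood at 168 in the ERG line against 42.0 to 46.6 in the others, and IL32 was higher in both lines that carry ERG.

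Members and all genes were then counted past 2-fold among genes reaching 1 FPKM in either line of a comparison. In ERG over vector 2 of 6 members tested, IL1B and IL32, were higher, against 3.66% of 12371 genes, and 0 were lower, against 0.994%. In mAKT over vector 0 of 6 were higher (1.18% of genes) and 0 lower (0.84%). In ERG+mAKT over mAKT 1 of 6, IL32, was higher, against 2.08%, and 0 were lower, against 0.891%. In ERG+mAKT over ERG 0 were higher (2.06%) and 1 of 6, IL1B, was lower, against 2.52%. In ERG+mAKT over vector 1 of 6, IL32, was higher, against 2.99%, and 0 lower, against 1.1%. IL32, at 0.862 FPKM in vector, passed the floor there only through the ERG+mAKT line, and in ERG over vector only through the ERG line. These comparisons share lines, so a high value in the ERG line enters both ERG over vector and ERG+mAKT over ERG.

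The median log2 ratio of the 6 members was 0.57 in ERG over vector (range 0.07 to 2.41), against a median of -0.01 over all genes tested. It was -0.56 in ERG+mAKT over ERG (range -1.89 to 0.12), against -0.05. In mAKT over vector, ERG+mAKT over mAKT and ERG+mAKT over vector the medians were 0.12, 0.04 and 0.11, against 0.02, -0.07 and -0.06. The lowest member of the first comparison, CXCL2, was only 0.07 above 0, and 38.1% of all genes tested there were as high or higher.

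**Figure D2:**
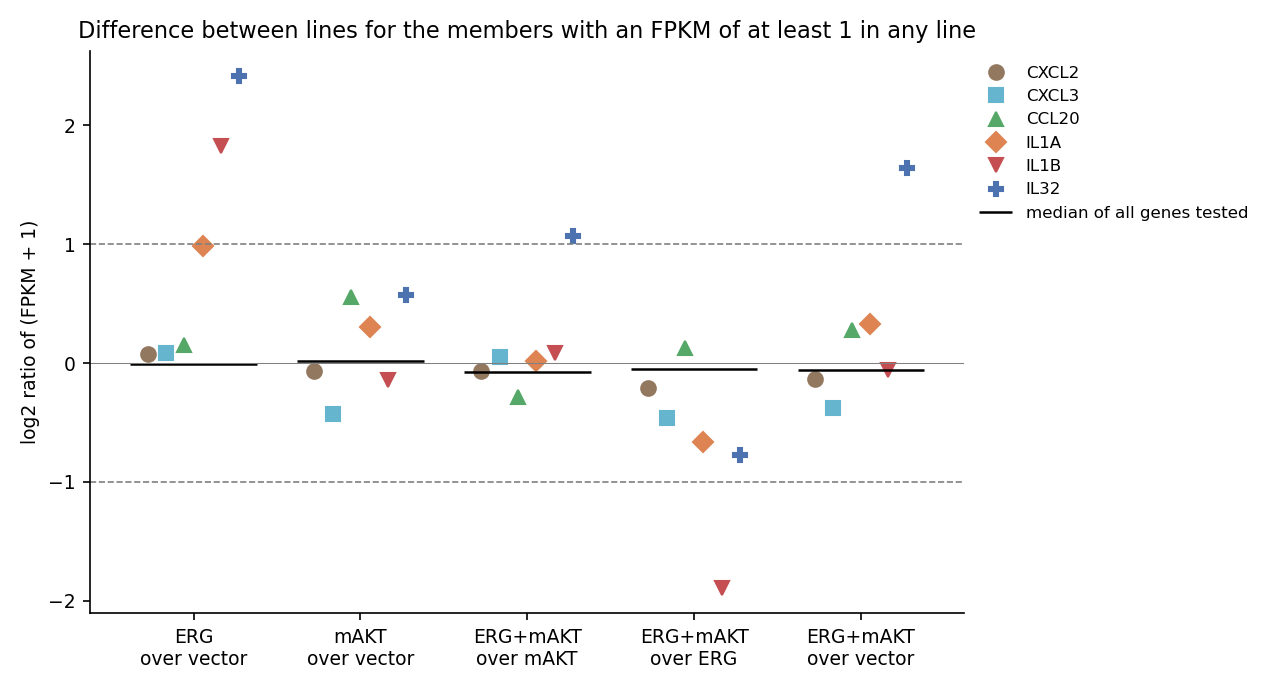
Symbols give the log2 ratio of (FPKM + 1) for the 6 members that reached 1 FPKM in any line (vertical axis) in 5 comparisons (horizontal axis), with the median of all genes tested as a black line and 2-fold as dashed lines. IL32 and IL1B lie past 2-fold in ERG over vector at 2.41 and 1.83, and IL1B lies at -1.89 in ERG+mAKT over ERG.

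Of 14 receptors and antagonists listed, 6 reached 1 FPKM in any line, and the CXC and CC receptors CXCR1, CXCR2, CXCR4 and CCR6 were at most 0.128 FPKM. The IL-1 receptor chain IL1R1 was at 0.971, 0.935, 1.03 and 0.885 FPKM in vector, ERG, mAKT and ERG+mAKT cells, and its partner IL1RAP at 15.8, 14.8, 14.7 and 10.9. The IL-6 receptor chains IL6R and IL6ST were between 4.44 and 13.2 FPKM and OSMR between 14.8 and 18.9. IL1RN, which encodes the antagonist that blocks IL1R1, was at 4.11, 2.61, 6.02 and 12.5 FPKM. It was lowest in the line where IL1B was highest. Its log2 ratio of 1.90 in ERG+mAKT over ERG was the 1 of 5 values tested there that passed 2-fold. Of all genes tested in that comparison, 2.06% were higher by 2-fold.

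Of 13 NF-kB subunits and inhibitors, all 13 were tested and 0 differed by 2-fold in any of the 5 comparisons, at 1 pooled value a line and with no replicate test. Over all genes tested, 0.84% to 3.66% passed 2-fold in a given direction and comparison. RELB, the alternative-pathway subunit, was at 5.87, 11.1, 5.94 and 8.70 FPKM in vector, ERG, mAKT and ERG+mAKT cells. Among 18 NF-kB response genes, 5 were higher in ERG over vector (ICAM1, SAA1, SAA2, C3 and LTB), against 3.66% of all genes tested. Of these 5, 3 (SAA2, C3 and LTB) passed the floor only through the ERG line. In ERG+mAKT over mAKT 5 were higher (ICAM1, LCN2, SAA1, SAA2 and C3), against 2.08%. In mAKT over vector 0 of 17 tested were higher, against 1.18%. In each of these comparisons 0 were lower, against 0.994%, 0.891% and 0.84% of all genes tested. The list was chosen with earlier results of these data known. The median log2 ratios of the response genes were 0.54, 0.47 and 0.13 in that order. ICAM1, the adhesion molecule for leukocyte integrins, was at 4.01, 16.5, 3.68 and 10.4 FPKM. SAA1, an acute-phase apolipoprotein, was at 31.5, 165, 33.8 and 154 FPKM. Their log2 ratios in ERG+mAKT over mAKT were 1.29 and 2.16, beside 0.08 for IL1B.

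In ERG+mAKT over ERG 3 of the 18 response genes were higher, LCN2, TNFAIP2 and CEBPD, against 2.06% of all genes tested. None was lower, against 2.52%. LCN2, an iron-trapping antibacterial protein, was at 0.945, 2.27, 2.09 and 12.0 FPKM. CEBPD, a C/EBP transcription factor, was at 45.2, 26.2, 40.2 and 61.4 FPKM. Of 32 other cytokines and chemokines 13 reached 1 FPKM in any line. IL24, at 0.220, 2.21, 0.0996 and 6.97 FPKM, was the 1 of 12 tested that was higher in ERG over vector, against 3.66% of all genes tested. It too passed the floor there only through the ERG line. TNFSF10, the death ligand TRAIL, was at 1.04, 1.21, 1.96 and 6.96 FPKM, highest with ERG and mAKT together.

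**Figure D3:**
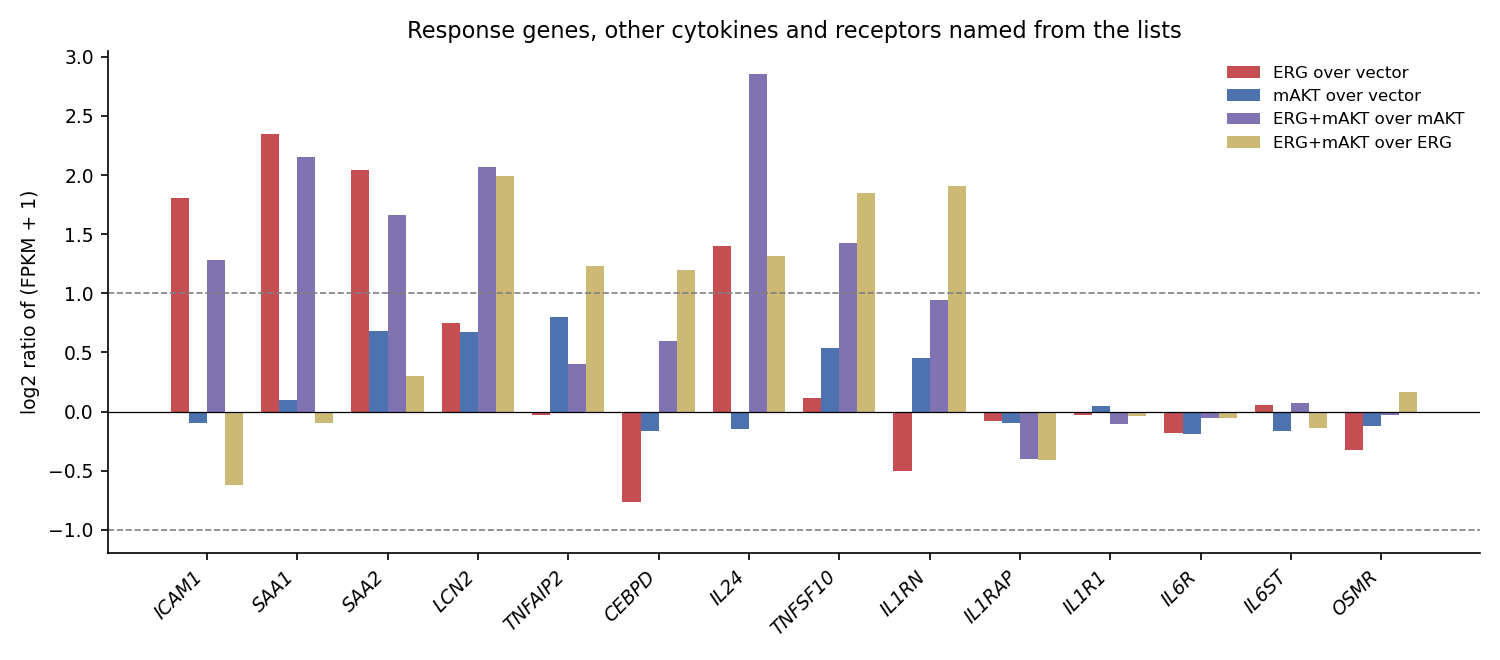
Bars give log2 ratios of (FPKM + 1) (vertical axis) in 4 comparisons for the named response genes, other cytokines and receptors, with dashed lines at 2-fold. ICAM1, SAA1 and SAA2 lie above 2-fold in ERG over vector and in ERG+mAKT over mAKT, while IL1RN lies at 1.90 in ERG+mAKT over ERG.

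The profiles over the 4 lines were compared with those of 9311 genes that reached 5 FPKM, by the Euclidean distance of centred log2(FPKM + 1) values. The nearest genes to IL1A were CYBA at 0.11, SNORA68 at 0.12 and BST2 at 0.12. IL1B was nearest to SNORA52 at 0.16, ADAM19 at 0.26 and HIST1H1C at 0.27. IL32 was nearest to SNORA47 at 0.25, SNORD33 at 0.28 and SNORA49 at 0.28. Small nucleolar RNAs are shorter than a typical fragment, which makes their FPKM uncertain, and 4 points make this a description only.

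Peaks were counted within 20 kb of each gene's GENCODE span. ERG peaks of RWPE1-ERG+mAKT cells lay near 4 of 10 members, CXCL2, CXCL5, CCL20 and IL1B, against 27.9% of all genes and 31.6% of those that reached 1 FPKM in a line, a share near the background. VCaP ERG peaks lay near 0 of 10, against 19.3% and 23.6%. ERK2 peaks of vector cells lay near 5 of 10 (CXCL2, CXCL3, IL1A, IL1B and IL32), against 65.8% and 75.8%, in a list of 41276 peaks. ERK2 peaks of ERG cells lay near 2 of 10, CCL20 and IL1B, against 22.6% and 32.6%, in a list of 5721 peaks.

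**Figure D4:**
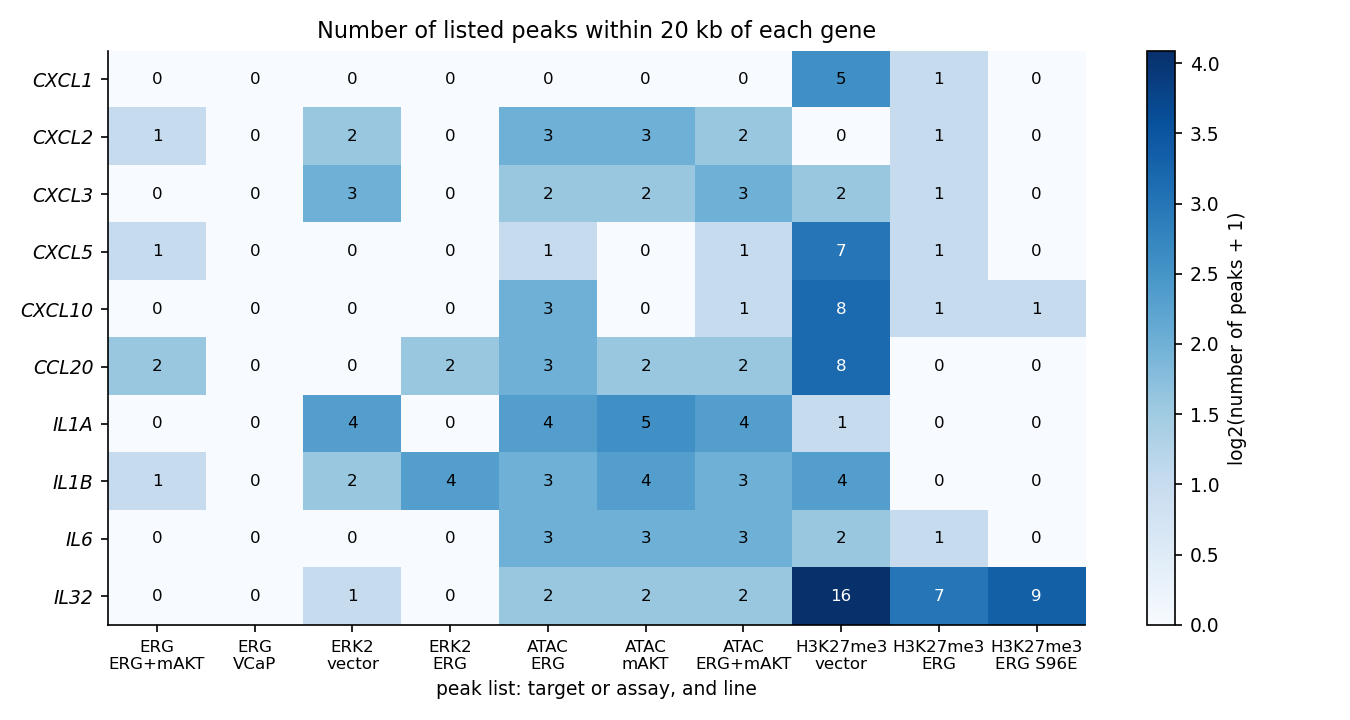
Cells give the number of listed peaks within 20 kb of each gene (rows) in each of 10 peak lists (columns), shaded by log2(number + 1). IL1B has 1 ERG peak in ERG+mAKT cells and 4 ERK2 peaks in ERG cells. VCaP ERG has 0 in every row, and IL32 has the most H3K27me3 peaks in each of those 3 lists.

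At IL1B the ERG peak of RWPE1-ERG+mAKT cells spanned chr2:113569427-113569735, in intergenic sequence 17.6 kb past the end of the gene. It had a fold enrichment over input of 4.70 and a -log10 q-value of 1.34. Its fold enrichment was at or above that of 88.9% of the 9113 ERG peaks, but its pileup was 7 reads. The ERK2 peak chr2:113569467-113569651 of RWPE1-ERG cells lay wholly inside it, with a fold enrichment of 3.40 and a -log10 q-value of 0. These peaks come from different lines. No ERG peak list of RWPE1-ERG cells, the line with the highest IL1B, was used here, so binding of both in the same cells was not tested. The site is 27.4 kb before the start of IL1A, outside the window of that gene. ATAC peaks covered it in RWPE1-ERG (fold enrichment 6.51, pileup 47.3) and RWPE1-ERG+mAKT cells (5.48, pileup 32.1), and no ATAC peak of RWPE1-mAKT cells did. The absence of a peak from a list is a call at a threshold, not a measured difference in accessibility.

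Of all 9113 ERG peaks, 2.91% overlapped an ERK2 peak of ERG cells, 1.77% overlapped ATAC peaks of the ERG and ERG+mAKT lines and none of the mAKT line, and 11 peaks (0.121%) did both, the IL1B site among them. The 11 GGAA cores of that ERG peak compare with a median of 3 in windows of its 309 bases at the centre of every ERG peak, and 0.45% of those windows held as many. The combination of peaks was not set beforehand but follows what was listed at the IL1B site, so its share is a description only. GGAA was counted after the sequence had been seen.

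The other 3 ERK2 peaks of ERG cells at IL1B were chr2:113584833-113585061 in intergenic sequence and chr2:113592527-113592962 and chr2:113593774-113594020 over IL1B exons, 1394 and 336 bases past the start site. Their fold enrichments were 3.13, 4.47 and 3.95. Vector cells had ERK2 peaks at chr2:113586200-113586400 (3.08) and in an IL1B intron at chr2:113593208-113593408 (2.90), with no overlap of the ERG-cell peaks. An ATAC peak lay over the IL1B start in all 3 lists, with fold enrichments of 6.81 in ERG, 6.26 in mAKT and 4.99 in ERG+mAKT cells.

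**Figure D5:**
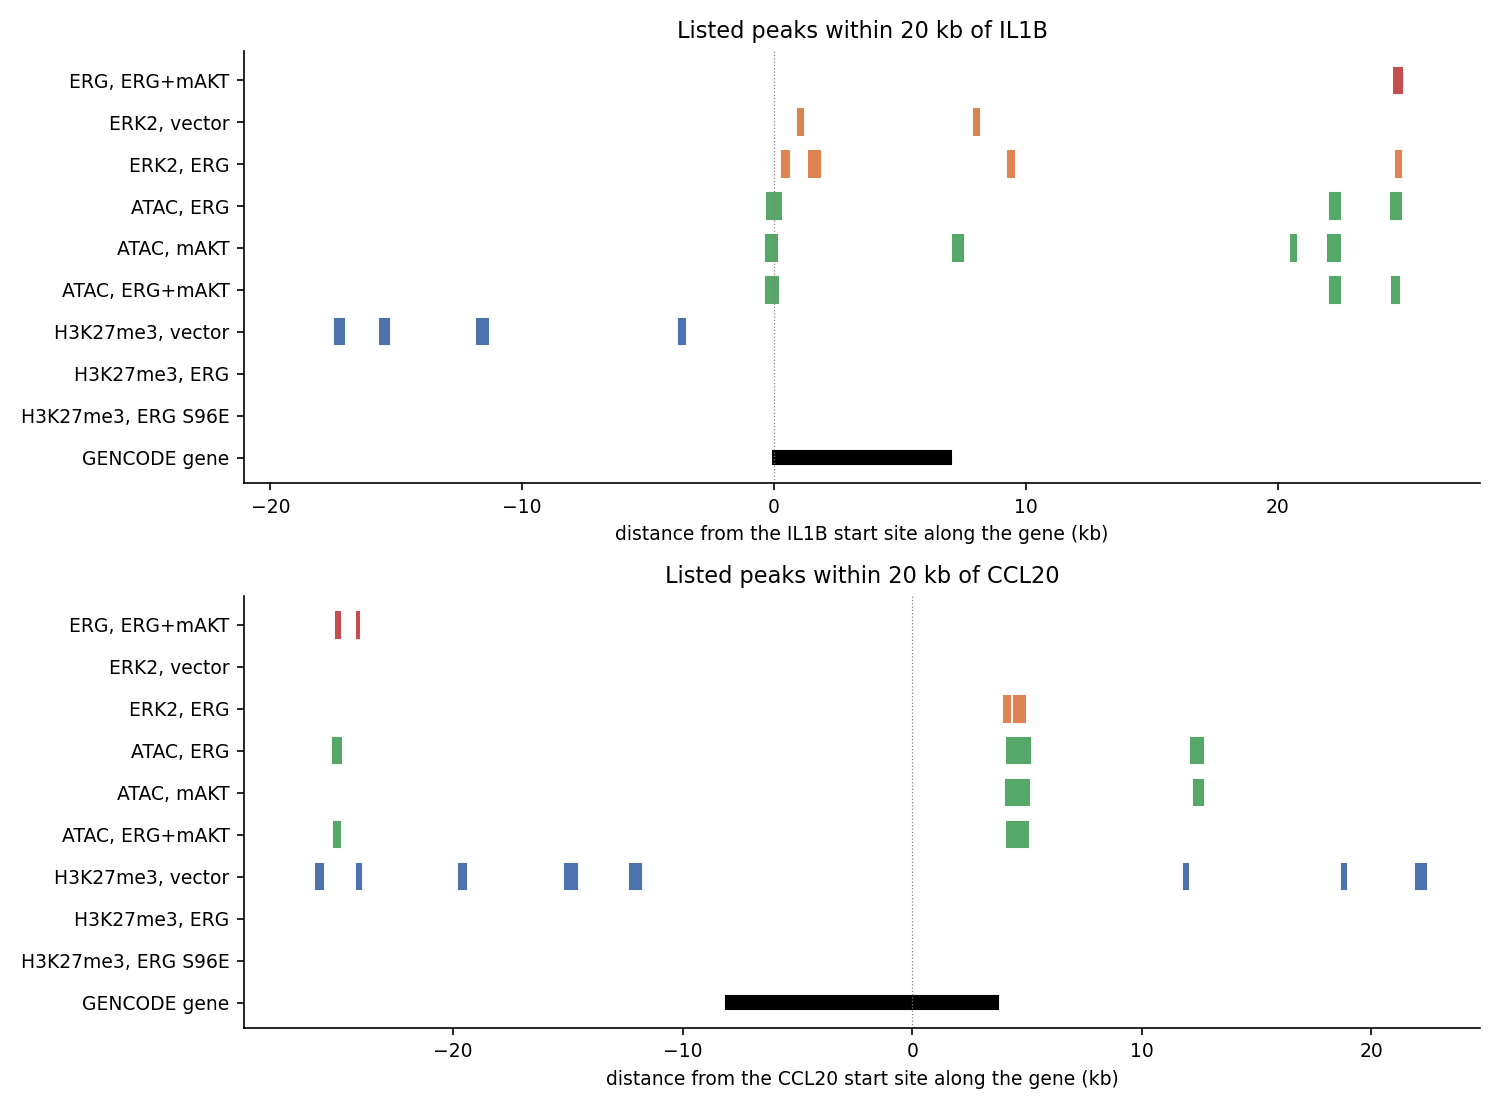
Blocks mark listed peaks within 20 kb of IL1B (top) and CCL20 (bottom) by distance from the start site along the gene in kb (horizontal axis), 1 row per peak list, with the GENCODE span in black. The ERG peak of ERG+mAKT cells, the ERK2 peak of ERG cells and the ATAC peaks of both lines stack at about 25 kb past the IL1B start. The ATAC row of mAKT cells is empty there, and the H3K27me3 rows of ERG and ERG S96E are empty at both genes.

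CCL20 had 2 ERG peaks, chr2:228653461-228653635 (fold enrichment 4.11) and chr2:228654345-228654453 (3.53), both intergenic. They lie 24.9 and 24.1 kb before the RefSeq start and fall in the window only because GENCODE has the gene begin upstream of it. The first lay in an ATAC peak listed in ERG (12.2) and ERG+mAKT cells (4.19) and not in mAKT cells. Both ERK2 peaks of ERG cells, chr2:228682564-228682835 (4.69) and chr2:228682990-228683481 (4.36), lay just past the gene end and under ATAC peaks of all 3 lines. The second held 3 AP-1 places and 1 match to CGGAAGTG or AGGAAGTG. Of windows of the same length at the centres of the ERK2 peaks, 0.699% held as many AP-1 places. That share was picked from several peaks and motifs. Of the other ERK2 peaks of ERG cells near members, chr2:113584833-113585061 held 1 AP-1 place and the rest held 0. CCL20 levels themselves differed by at most 1.67-fold between lines.

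At CXCL5, which was listed at 0 FPKM, the ERG peak chr4:74871258-74871375 (fold enrichment 2.91, pileup 6) lay in an intron of the unnamed gene ENSG00000287037 and under ATAC peaks of the ERG (5.29) and ERG+mAKT lines (5.24) and not of the mAKT line. With each ATAC list held to its 42081 top peaks by p-value, the peak of the ERG line at this site is no longer listed, while those at the IL1B and CCL20 sites are. At CXCL2 the ERG peak chr4:74974994-74975125 (2.82, pileup 3) was intergenic, held 0 GGAA cores and lay under ATAC peaks of all 3 lines. A vector-cell ERK2 peak, chr4:74974637-74974890 (3.42), lay under the same ATAC peaks. The other vector-cell ERK2 peaks had fold enrichments of 2.38 to 4.31, the highest being chr16:3100432-3100684 over an exon of MMP25, 14.7 kb before IL32.

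ATAC peaks lay within 20 kb of 9 of 10 members in ERG cells, 7 of 10 in mAKT cells and 9 of 10 in ERG+mAKT cells, against 86.8%, 85.7% and 81.1% of all genes and 98.2%, 98.1% and 97.4% of those at 1 FPKM. Within 1 kb of the gene start they lay at 5, 4 and 5 of 10 members, against 57.7%, 56.7% and 52.4% of all genes and 85.8%, 85.4% and 82% of those at 1 FPKM. CXCL2, CXCL3, IL1B and IL6 had such a peak in all 3 lists and IL1A in those of the ERG and ERG+mAKT lines, with fold enrichments of 3.80 and 3.12. IL32 had none in any list, although it reached 8.92 FPKM. Its nearest ATAC peak in ERG cells, chr16:3109044-3109661 over exons of MMP25 and MMP25-AS1, ended 5743 bases before the start site. CXCL1 had no ATAC peak within 20 kb in any list.

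H3K27me3 peaks lay within 20 kb of 9 of 10 members in vector cells, 7 of 10 in ERG cells and 2 of 10 in ERG S96E cells, against 95.4%, 70.4% and 74.7% of all genes and 94.9%, 59.7% and 66.3% of those at 1 FPKM. CCL20 had 8 in the vector list, IL1B 4 and IL1A 1, and these 3 genes had 0 in each of the other lists, a pattern that 16.1% of all genes and 23.2% of genes at 1 FPKM showed. IL32 had peaks in all 3 lists, 16 in vector, 7 in ERG and 9 in ERG S96E cells, and 32%, 30.6% and 30.5% of genes had as many. The highest fold enrichment at IL32 was 2.56, 2.71 and 5.13 in that order, and CXCL10 had 8, 1 and 1 peaks. The lists hold 492265, 228233 and 252784 peaks, so a count moves with the length of its list, and only 1 H3K27me3 peak near a member, at IL32 in ERG S96E cells, had a q-value of 0.01 or below.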

How the data were processed

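RNA-seq of 4 RWPE1 lines (12 libraries), ChIP-seq and ATAC-seq were measured. The authors selected polyA RNA, aligned reads with TopHat2 and ran Cuffdiff, and the deposited table gives FPKM per gene and line, pooled over 3 libraries. Its Cuffdiff fold changes, test statistics and p-values were not used. The 4 symbols with more than 1 value or locus were left out. ChIP DNA was pooled by the authors from 3 experiments, aligned to hg19 with Bowtie2, filtered for duplicates and called with MACS2 (2.1.2 or 2.2.7.1 per the file headers) (p-value limit 0.001 for ERG, 0.01 for ERK2 and 0.1 for broad H3K27me3 regions; q-value for ATAC in RWPE1-mAKT). The deposited lists give each peak's pileup signal, its fold enrichment ratio, and p-values and q-values as -log10. Headers record 8393459 to 26454542 ChIP reads and 35688481 ATAC tags in RWPE1-mAKT cells. The depth of the pooled FPKM and of the other lists is unknown here. Lists under the VCaP input and LY294002 labels did not match their labels and were not used. ATAC of RWPE1-Vector was not analysed here.

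Ratios used log2(FPKM + 1), a floor of 1 FPKM and 2-fold, with no test of its own, since the table gives 1 pooled value a line and the authors' tests were set aside. Genes were placed by GENCODE (release 44 on GRCh37) for 21984 symbols and by the table locus for 4265. Windows were 20 kb with an overlap of at least 1 bp. Named genes are all members, list genes past 2-fold at 5 FPKM or more (at most 8 a list), receptors at 1 FPKM, the 3 genes nearest in profile, and all ERG and ERK2 peaks at members. C3, LTB, RELB, TLR4 and CASP1 fall outside this rule and were chosen after their values were seen. The members, lists and rules were chosen with earlier results of these data known. Python 3.11.15, pandas 2.3.3, numpy 2.4.6 and pysam 0.24.0 were used, and the ratios and windows were tested on simulated data. Alternatives were another pseudocount, scaling, floors, folds, windows, q-values, ATAC lists of equal size, and the span of the expression table, the last chosen after the data were seen.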

Additional observations from a re-analysis of the deposited data

Results flagged for a closer look

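Of the 6 members that reached 1 FPKM, 4 had opposite signs of a contrast in the other background, 2 for the ERG effect and 2 for the mAKT effect. Among all 12666 genes at that level, 42.7% had opposite signs for the ERG effect and 47.6% for the mAKT effect, so these counts lie near the background. Below 1 FPKM, the mAKT effect was -0.13 and 0.12 for CXCL1 and 0.14 and -0.11 for IL6. In each case the difference was not tested, because each line has 1 pooled value. The ERG effect on CCL20 was 0.15 on the log2 scale without mAKT and -0.28 with it, a difference of -0.44. That on CXCL2 was 0.07 and -0.06, a difference of -0.14, and with median-ratio scaling both of its values were above 0 (0.09 and 0.0024). The mAKT effect on IL32 was 0.57 without ERG and -0.77 with it, a difference of -1.34. That on IL1A was 0.30 and -0.66, a difference of -0.97. Over all these genes the median difference was -0.06, and the share with a difference as low was 1.48% for IL32, 2.82% for IL1A, 14.2% for CCL20 and 41.3% for CXCL2.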

How the results depend on the processing

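No paired analysis was possible because each line has 1 FPKM value that the authors pooled over 3 libraries, and for the same reason no library could be left out in turn. Of the 60 counts of members past a fold under an alternative, 56 stayed within 1.5 times the value given. The values given were 0 to 2 members, so many counts could hardly move, and 2 against 3 counted as unchanged. Of 53 counts of members with a peak, 37 stayed within the same limit. No log2 ratio past 2-fold changed sign. With median-ratio scaling, the log2 ratio of CXCL2 in ERG+mAKT over mAKT went from -0.06 to 0.0024. The log2 ratio of IL1B in ERG+mAKT over vector went from -0.06 to 0.0055 with that scaling. The members higher in ERG+mAKT over mAKT numbered 0 with a floor of 5 FPKM and 0 at 3-fold, and those higher in ERG+mAKT over vector 0 with the floor of 5 FPKM. At 1.5-fold 3 members were lower in ERG+mAKT over ERG. IL1A reached 2-fold in ERG over vector, at 1.02 with a pseudocount of 0.1 and at 1.00 with median-ratio scaling, and the share of all genes past the fold moved by over 1.5 times in 33 of 60 alternatives. With a window of 5 kb, 0 members had an ERG peak, 2 an ERK2 peak in vector cells, and 4 an H3K27me3 peak in vector cells and 4 in ERG cells. With 50 kb the numbers were 7 for ERG, 1 for VCaP ERG, 9 for ERK2 in vector cells, 4 for ERK2 in ERG cells and 4 for H3K27me3 in ERG S96E cells. With a q-value of at most 0.01 they were 0 for ERG, 0 for ERK2 in vector and 0 in ERG cells, 0 for H3K27me3 in vector and 0 in ERG cells, and 1 in ERG S96E cells, so every ERG and ERK2 peak described here rests on the authors' looser limit. With the locus of the expression table as the span, chosen after the data were seen, 1 member, CXCL10, had a VCaP ERG peak. With ATAC lists of equal size 8 members, without CXCL5, had an ATAC peak in ERG cells. The cause of these differences was not tested. The pileups of 3 to 7 reads limit the ERG peaks.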

Other observations

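Genes upstream of these cytokines gave a mixed picture. Of 13 activators listed, 12 were tested in ERG over vector. TLR4, the receptor for bacterial lipopolysaccharide, was the 1 that was higher by 2-fold, against 3.66% of all genes tested. It passed the floor of 1 FPKM only through the ERG line. Its levels were 0.537 FPKM in vector, 2.22 in ERG, 0.288 in mAKT and 0.468 in ERG+mAKT cells, highest in the ERG line. Its log2 ratio was -1.13 in ERG+mAKT over ERG, where it again passed the floor only through the ERG line. CASP1, the protease that cuts the IL-1 beta precursor, had log2 ratios of 0.70 in ERG over vector, 0.85 in ERG+mAKT over mAKT and 0.42 in ERG+mAKT over ERG, and of 1.13, past 2-fold, in ERG+mAKT over vector. No protein or secretion was measured.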
